A study of Mus musculus with 7 samples.

Results

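The 34 genes described here are known from B cells, the lymphocytes that carry immunoglobulin as their antigen receptor. They were listed by symbol, and all 34 were measured, of 19752 genes with a value. Each was read by 1 transcript cluster (the probe set of a gene on the array) that carries only that gene's symbol. RNA was read on Affymetrix Mouse Gene 1.0 ST arrays and came from spleens of male C57BL/6 mice aged 6 weeks, from a fraction enriched for natural killer (NK) cells by negative selection, that is, by tagging and taking out the rest. The cells had been kept in vitro for 8 h, with interleukin 2 (IL2) at 250 U/ml on 4 arrays (replicates 1 to 4) or without cytokine on 3 arrays (untreated, replicates 2 to 4). The labels give no genetic change and no other agent. They do not tie replicates to separate animals or cultures, so a p-value here covers only sample-to-sample spread, which may be technical.

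B cells sense antigen through surface immunoglobulin, which passes its signal through the chains CD79a and CD79b to the kinases BLK and BTK and the adaptor BLNK. Inhibitory receptors such as CD22, CD72 and the Fc receptor encoded by Fcgr2b damp that signal, and receptors for the cytokine BAFF keep mature B cells alive. PAX5 and EBF1 are transcription factors that set up and hold the B cell programme. B cells are the most abundant lymphocytes of the mouse spleen and are among the cells that a negative selection for NK cells is meant to remove.

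Most of the B cell transcripts lay lower in the IL2 group by less than the limma test could call. Of the 34 genes 3 fell with IL2 (adjusted p under 0.05 after Benjamini-Hochberg correction), against 0.901% of all 19752 genes. These were Fcer2a, the low-affinity IgE receptor CD23, at -0.98 on the log2 scale, Fcgr2b, the inhibitory IgG receptor, at -0.95, and Dtx1, the Notch-linked ubiquitin ligase Deltex, at -0.80. By limma 0 of the 34 rose, where 2.08% of all genes did. At an unadjusted p under 0.05 limma had 13 of the 34 lower and 3 higher, against 4.67% and 8.81% of all genes. Normalizing the arrays by quantiles again raised the counts to 11 lower and 2 higher of the 34, and to 626 lower and 721 higher of all genes. The median log2 fold change over the 34 genes was -0.28, beside -0.01 over all genes, and 28 had a negative value, against 54.4% of all genes. In RNA from a mixed population, fewer cells of a type and less RNA per cell cannot be told apart.

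The mean signal of 33 of the 34 genes was at or above the median over all genes, the exception being Cd1d1, an antigen-presenting molecule for lipids, at a mean of 6.48. Intensities of different probe sets do not rank genes by transcript number, so each gene is compared only with itself across arrays. Cd79a read 12.02, 11.91 and 12.20 in untreated replicates 2, 3 and 4, and 11.85, 11.87, 11.94 and 12.02 in IL2 replicates 1 to 4. The groups overlapped, and the log2 difference was -0.12 (SE 0.09, 95% interval -0.34 to 0.09, limma adjusted p = 0.672). Ms4a1, which encodes CD20, read 10.93, 10.77 and 10.38 untreated and 10.71, 10.71, 10.63 and 10.43 with IL2, and its difference was -0.08 (95% interval -0.41 to 0.25). Both of these defining B cell genes read far above the median intensity on all 7 arrays of the NK cell fraction, and no detection call was used.

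The same arrays differed in the markers of other cell types, whose part in the results for the B cell genes was not tested. By limma 8 of 14 NK cell markers rose (5 without untreated replicate 4 or IL2 replicate 4, 11 without untreated replicate 2), and 9 of 18 measured macrophage and monocyte markers fell (4 without untreated replicate 4 or IL2 replicate 2, 5 without IL2 replicate 3). Ncr1, the NK cell receptor NKp46, went from 9.28 ± 0.17 (SD, n = 3) to 11.46 ± 0.07 (n = 4) on the log2 scale. Lyz2, the lysozyme gene of myeloid cells, went from 12.66 ± 0.11 (n = 3) to 10.89 ± 0.23 (n = 4). Summed over each marker list, the linear intensity was 8090 to 13216 untreated and 27518 to 33613 with IL2 for NK cells, and 16400 to 17310 and 6114 to 7670 for macrophages and monocytes. For the 21 B cell genes known mainly in B cells it was 23570 to 27745 untreated and 20506 to 21636 with IL2, so that the groups did not overlap. For the other 13 B cell genes it was 8656 to 10719 untreated and 7718 to 8814 with IL2, which overlapped. Such sums weigh the brightest probe sets most. The median intensity per array was 121.3 to 131.0, and no detection call was used for the markers.

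The promoter windows of the genes that limma called lower are shown, and whether these genes share regulation was not tested. The windows are the 250 bases before a start site, 5′ to 3′, in RefSeq's annotation of GRCm38.p6, for Fcer2a the middle of 3 start sites (chr8:3690862-3691111, minus strand), for Fcgr2b chr1:170976072-170976321 (minus strand) and for Dtx1 chr5:120711670-120711919 (minus strand). In Fcer2a capitals mark TTCCCA, the reverse complement of the TGGGAA core bound by RBPJ, the DNA-binding factor of the Notch pathway. The Fcgr2b and Dtx1 windows held no such match on either strand.
Fcer2a: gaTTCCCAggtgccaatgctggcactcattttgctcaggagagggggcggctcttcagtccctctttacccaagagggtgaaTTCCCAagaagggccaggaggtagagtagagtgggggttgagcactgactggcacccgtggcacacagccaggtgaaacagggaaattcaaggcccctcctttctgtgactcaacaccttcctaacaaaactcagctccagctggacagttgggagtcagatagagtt
Fcgr2b: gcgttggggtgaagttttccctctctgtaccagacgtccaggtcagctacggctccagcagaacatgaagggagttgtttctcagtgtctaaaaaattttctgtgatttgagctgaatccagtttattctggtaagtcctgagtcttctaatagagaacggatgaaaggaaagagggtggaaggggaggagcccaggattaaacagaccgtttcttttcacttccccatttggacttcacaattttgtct
Dtx1: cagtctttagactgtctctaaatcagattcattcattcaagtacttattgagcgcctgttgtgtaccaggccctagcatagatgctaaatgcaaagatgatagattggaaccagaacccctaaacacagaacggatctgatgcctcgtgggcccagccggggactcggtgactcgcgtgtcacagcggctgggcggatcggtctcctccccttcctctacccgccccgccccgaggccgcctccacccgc
The matches in this Fcer2a window begin 248 and 168 bases before its start. Of the 3 Fcer2a windows it holds the most matches. The window at chr8:3690391-3690640 held a match 205 bases before its start, and that at chr8:3694175-3694424 held none.

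Motifs were counted on both strands in such windows for the 26 of the 34 genes that the RefSeq table held. TGGGAA was found in a window of 6 of them (Bcl11a, Btk, Cd22, Cr2, Ebf1 and Fcer2a), while 24.1% of all 27025 genes had it, so the share is near the background. The octamer ATGCAAAT, read by OCT factors with the co-activator encoded by Pou2af1, was in 2 (Blnk and Vpreb3) against 1.81% of all genes. TTCNNNGAA, the palindrome of STAT factors, was in 1 (Bcl11a) against 8.13%. GAGGAAGT, a PU.1 form that SPI-B also reads, was in 4 (Btla, Cd37, Cd72 and Fcrl1) against 2.79%. These are letter matches with no occupancy measured, and a window without a match says nothing about the factor.

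Fcer2a (transcript cluster 10576757) read 10.52, 10.27 and 10.36 in untreated replicates 2, 3 and 4 and 9.14, 9.32, 9.37 and 9.79 in IL2 replicates 1 to 4. All IL2 arrays lay below all untreated arrays, with IL2 replicate 4 nearest to them. The log2 difference of -0.98 (SE 0.15, limma adjusted p = 0.0172) is a level 1.97-fold higher untreated. CD23 is carried by follicular B cells and by some myeloid cells. The call was kept without IL2 replicate 1 or 4 and ended without any other array, at limma adjusted p-values of 0.0576 to 0.0891.

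Fcgr2b (10360028) read 9.71, 9.25 and 9.11 untreated and 8.48, 8.61, 8.24 and 8.29 with IL2. The groups did not overlap, and the difference was -0.95 (SE 0.16, limma adjusted p = 0.0223), a level 1.94-fold higher untreated. Its product is an inhibitory Fc receptor for IgG on B cells and is also carried by macrophages, monocytes and dendritic cells, of whose markers 9 of 18 macrophage and monocyte genes and 1 of 12 dendritic cell genes fell over the same arrays. The call ended without untreated replicate 3 or IL2 replicate 2, 3 or 4, at 0.0585 to 0.0929.

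Dtx1 (10533182) read 8.98, 9.13 and 9.60 untreated and 8.63, 8.43, 8.39 and 8.32 with IL2. Untreated replicate 4 was highest and every IL2 array was below every untreated array, with a difference of -0.80 (SE 0.16, limma adjusted p = 0.0404) or a level 1.74-fold higher untreated. Dtx1 is a target of Notch signalling and is high in marginal zone B cells. It was kept without untreated replicate 2 or IL2 replicate 1, and lost with each of the other 5 arrays left out (limma adjusted p from 0.0751 to 0.146). It also ended with the style of the sample title as a block, at 0.0509.

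**Figure D1:**
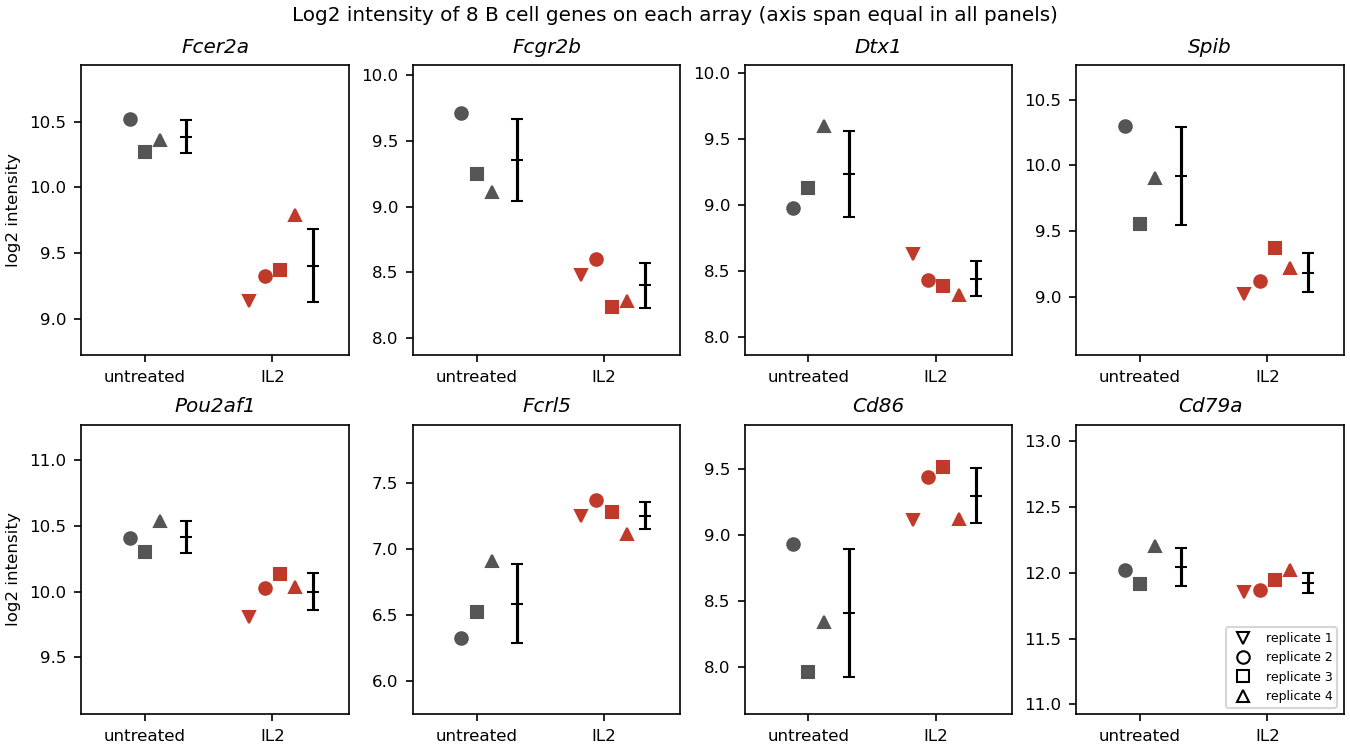
Log2 intensity (vertical axis, the same span in each panel) of 8 B cell genes in the 3 untreated (grey) and 4 IL2 (red) arrays, with marker shape for the replicate number and bars for the mean ± SD. The IL2 arrays lie below the untreated arrays for Fcer2a, Fcgr2b, Dtx1, Spib and Pou2af1, above them for Fcrl5 and Cd86, and overlap them for Cd79a.

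The 7 genes grouped here under the antigen receptor complex and its first signalling steps include Ralgps2 by its listing only. All their differences were negative, from -0.61 (Ralgps2) to -0.09, and by limma 0 were called. Cd79b read 12.49, 12.43 and 12.32 untreated and 12.10, 12.21, 12.04 and 12.13 with IL2. Its groups did not overlap, and the difference was small at -0.29 (SE 0.08, limma adjusted p = 0.123). Btk, the Tec family kinase whose loss blocks B cell development in humans, read 9.17, 8.89 and 9.35 untreated and 8.19, 8.44, 8.73 and 8.78 with IL2. It too did not overlap, with -0.60 (SE 0.17, limma adjusted p = 0.148), and it is also expressed in myeloid cells. Ralgps2, an exchange factor for Ral GTPases, had -0.61 (SE 0.22), but untreated replicate 2 at 9.22 stood apart from replicates 3 and 4 at 8.40 and 8.33. The Src family kinase gene Blk had -0.54 (SE 0.21), the scaffold gene Bank1 -0.22 (SE 0.14) and the adaptor gene Blnk -0.09 (SE 0.10), all with overlapping groups.

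The transcription factor genes were lower with IL2 in 4 of 5 cases, with 0 calls by limma and a median of -0.41. Spib, an ETS factor of B cells and plasmacytoid dendritic cells, read 10.30, 9.55 and 9.91 untreated and 9.02, 9.13, 9.38 and 9.22 with IL2. The groups did not overlap, and the difference was -0.73 (SE 0.17, limma adjusted p = 0.0818). Pou2af1, the co-activator OCA-B of germinal centre formation, read 10.41, 10.30 and 10.53 untreated and 9.80, 10.03, 10.13 and 10.04 with IL2. It did not overlap either, with -0.41 (SE 0.10, limma adjusted p = 0.0969). Ebf1 and Pax5 had -0.49 (SE 0.16, limma adjusted p = 0.200) and -0.29 (SE 0.12, limma adjusted p = 0.315), and in both 1 or more IL2 arrays reached above untreated replicate 3. Bcl11a, which is needed for early lymphoid development, had 0.03 (95% interval -0.27 to 0.33).

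Of the 7 co-receptor and surface marker genes, Fcer2a fell and the other 6 were not called. Cr2, which encodes the complement receptors CD21 and CD35, read 8.55 in untreated replicate 2 against 7.39 and 7.21 in replicates 3 and 4, and 7.39, 7.43, 6.94 and 7.16 with IL2. Only untreated replicate 2 stood above the IL2 arrays, and the difference of -0.49 had an interval of -1.21 to 0.23. Vpreb3, a chaperone-like protein of B cell receptor assembly, read 7.92, 7.38 and 7.23 untreated and 6.86, 6.84, 6.94 and 7.12 with IL2, which did not overlap (-0.57, SE 0.17, limma adjusted p = 0.158). Fcrla, an intracellular Fc receptor-like protein, had -0.25 (SE 0.12) with groups that did not overlap. For the tetraspanin gene Cd37 (-0.05, interval -0.37 to 0.27) and Ly6d (0.01, interval -0.16 to 0.18), a surface marker of B lineage progenitors, the interval held 0.

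Of the 7 genes grouped here as inhibitory receptors or members of their families, Fcgr2b fell and the other 6 were not called. Fcrl5, an Fc receptor-like protein of marginal zone and B-1 cells, read 6.32, 6.53 and 6.91 in untreated replicates 2, 3 and 4 and 7.25, 7.37, 7.28 and 7.12 with IL2. All IL2 arrays were above all untreated arrays, and the difference was 0.67 (SE 0.14, limma adjusted p = 0.0539). Without untreated replicate 4 it was 0.83 (limma adjusted p = 0.0259), and with arrays centred on their medians 0.70 (0.0299). Leaving out any other array gave limma adjusted p-values of 0.096 to 0.179 for Fcrl5, and replicate number as a block gave 0.129. Cd22, a sialic acid-binding receptor, had -0.01 (95% interval -0.35 to 0.34), and Siglecg, of the same lectin family, -0.33 (-0.68 to 0.03). The lectin receptor gene Cd72 had -0.24, the checkpoint receptor gene Btla -0.26 and Fcrl1 -0.16, each with overlapping groups. For Cd72 untreated replicate 2 read 10.32, above the other 6 arrays at 9.39 to 9.67.

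The genes for the BAFF and APRIL receptors both had negative differences without a call. Tnfrsf13b, which encodes TACI, read 8.63, 8.39 and 8.72 untreated and 8.20, 8.26, 8.29 and 8.34 with IL2, apart by a narrow margin (-0.31, SE 0.10, limma adjusted p = 0.198). Tnfrsf13c, which encodes the BAFF receptor, read 9.32 in untreated replicate 2 and 10.27 and 10.40 in replicates 3 and 4, around the IL2 arrays at 9.69, 9.49, 9.68 and 9.71. It was among the 5 genes whose lowest untreated value was in replicate 2. Its difference was -0.35 over all arrays (SE 0.24, limma adjusted p = 0.635) and -0.69 without untreated replicate 2 (limma adjusted p = 0.0229).

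Cxcr5, the receptor that guides B cells into follicles, read 8.67, 8.27 and 8.30 untreated and 8.62, 8.96, 8.82 and 8.76 with IL2. The groups met at untreated replicate 2 and IL2 replicate 1, and the difference was 0.38 (SE 0.13, limma adjusted p = 0.224). Swap70, a protein of actin remodelling, had -0.12 (95% interval -0.39 to 0.14). In the presentation and co-stimulation genes, Cd86, the ligand of CD28 that activated B cells and dendritic cells carry, read 8.93, 7.96 and 8.34 untreated and 9.12, 9.44, 9.51 and 9.12 with IL2. All IL2 arrays were above all untreated arrays, by 0.89 (SE 0.22, limma adjusted p = 0.0991), and without untreated replicate 2 the difference was 1.15 (limma adjusted p = 0.0297). That was the only array whose omission gave a call for Cd86, the limma adjusted p-values otherwise reaching up to 0.299. Cd83, an activation marker of the same cells, had 0.02 (95% interval -0.16 to 0.20), and Cd1d1 had -0.31 (-0.84 to 0.22).

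**Figure D2:**
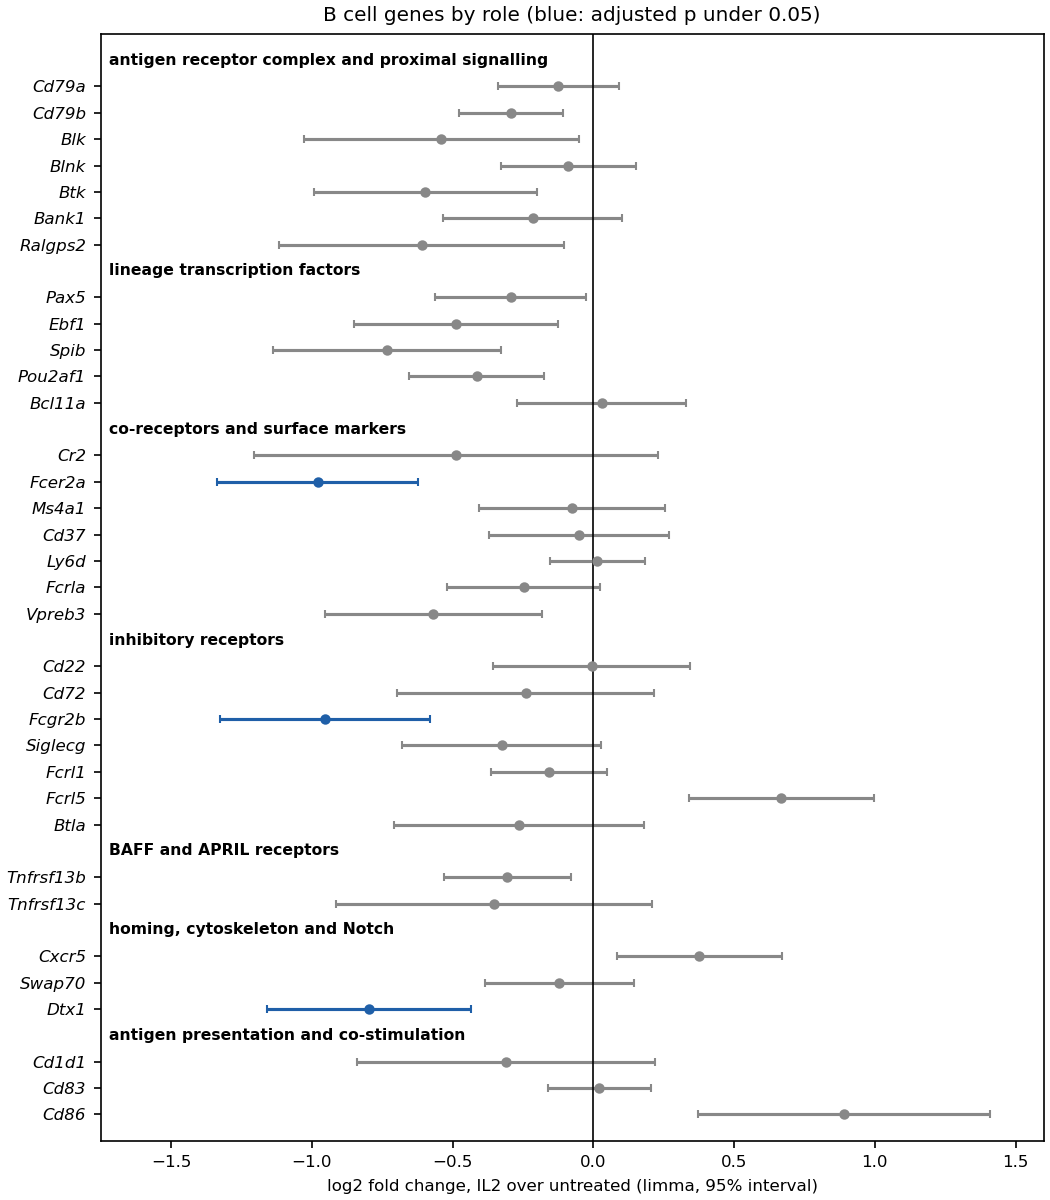
Log2 fold change of IL2 over untreated (horizontal axis) with its 95% interval from limma for the 34 B cell genes, ordered by role, blue where the adjusted p was under 0.05. Most points lie left of 0, 3 are blue, and Fcrl5, Cxcr5 and Cd86 stand to the right.

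Over all 34 genes, the IL2 arrays lay entirely below the untreated arrays in 11 and entirely above in 2, where 3.38% and 6.25% of all genes did so. The 95% interval held 0 in 18 of the 34 and lay within a 2-fold change either way in 26. The 21 genes known mainly in B cells had a median of -0.29, with 1 fall and 0 rises by limma (9 lower and 2 higher at an unadjusted p under 0.05). The 13 that are also known in myeloid, dendritic, T or NK cells had a median of -0.12, with 2 falls and 0 rises (4 lower and 1 higher unadjusted).

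The spread of the B cell genes was wider in the untreated group, a difference that was not tested. Their median SD was 0.28 over the 3 untreated arrays and 0.13 over the 4 IL2 arrays, while over all genes it was 0.17 and 0.14. Of the 34 genes 23 had their highest untreated value in replicate 2, 1 in replicate 3 and 10 in replicate 4. Relative to each gene's mean over the 7 arrays, the median of the 34 was 0.27 in untreated replicate 2, -0.03 and 0.05 in replicates 3 and 4, and -0.14, -0.05, -0.10 and -0.06 in IL2 replicates 1 to 4. Leaving out untreated replicate 2 moved the median fold change from -0.28 to -0.12, and that of the 21 genes known mainly in B cells from -0.29 to -0.15. Over all genes the median moved from -0.01 to -0.04. Of the 34 genes 73.5% were then negative, beside 58.9% of all genes. Without untreated replicate 2, limma called 3 of the 34 lower and 1 higher, beside 141 and 423 of all 19752 genes. These were Dtx1, Fcgr2b and Tnfrsf13c, and Cd86. Without IL2 replicate 2 or 3 limma called 0 of the 34, beside 65 or 90 lower and 134 or 144 higher of all genes. At an unadjusted p under 0.05, 11 of the 34 were then lower and 2 or 3 higher. Over all genes these unadjusted counts were 633 or 757 lower and 1472 or 1236 higher. Without untreated replicate 3 or IL2 replicate 4 limma called 1 of the 34 lower (Spib and Fcer2a, respectively), beside 152 and 104 of all genes. Without untreated replicate 4 it called Fcgr2b lower and Fcrl5 higher, beside 79 lower and 162 higher of all genes.

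**Figure D3:**
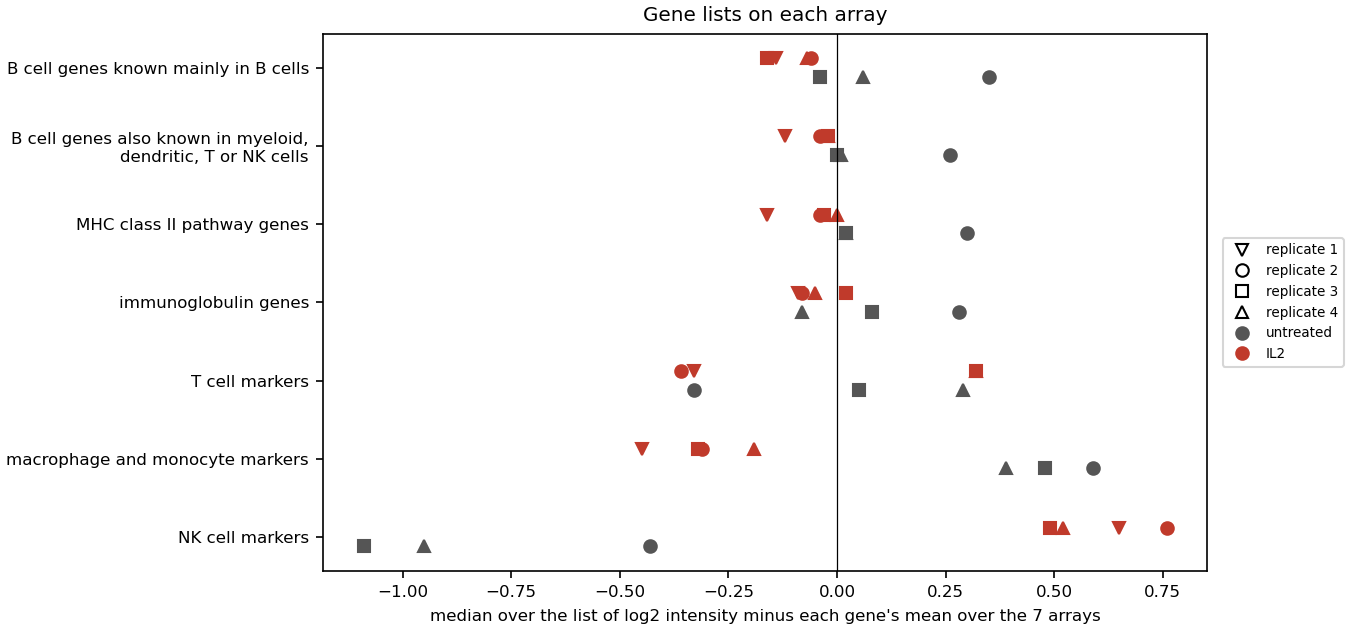
Median over each gene list of the log2 intensity minus each gene's mean over the 7 arrays (horizontal axis), by array, grey for untreated and red for IL2, with marker shape for the replicate number. Untreated replicate 2 stands right of all other arrays for both parts of the B cell list, at 0.35 and 0.26. It does so too for MHC class II (0.30), immunoglobulin (0.28) and macrophage and monocyte genes (0.59). Macrophage and NK cell markers separate the groups, and T cell markers separate replicates 1 and 2 from 3 and 4.

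The sample titles come in 2 styles, those of replicates 3 and 4 giving the time and those of replicates 1 and 2 not giving it. Within the arrays that give the time (2 IL2, 2 untreated) the median over the 34 genes was -0.18 with 23 negative, and within the others (2 IL2, 1 untreated) it was -0.42 with 29 negative. Over all genes these medians were -0.02 and 0.02, with 52.5% and 46.2% negative. In the first style limma called 0 of the 34, beside 22 lower and 81 higher of all 19752 genes. At an unadjusted p under 0.05, 6 of the 34 were lower and 2 higher there, beside 1393 and 2829 of all genes. The second style has 1 untreated array, so only its fold changes are read here. Fcer2a had -0.74 and -1.29 in these styles, Fcgr2b -0.92 and -1.16, and Dtx1 -1.01 and -0.45. Cd86 had 1.17 and 0.35, Fcrl5 0.48 and 0.99, and Spib -0.43 and -1.23. Of the 34 genes 26 kept their sign across the styles, and Tnfrsf13c, at -0.64 and 0.27, did not. The single untreated array of the second style is replicate 2, in which the B cell genes read highest. Whether the effect of IL2 differed between the styles was not tested.

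**Figure D4:**
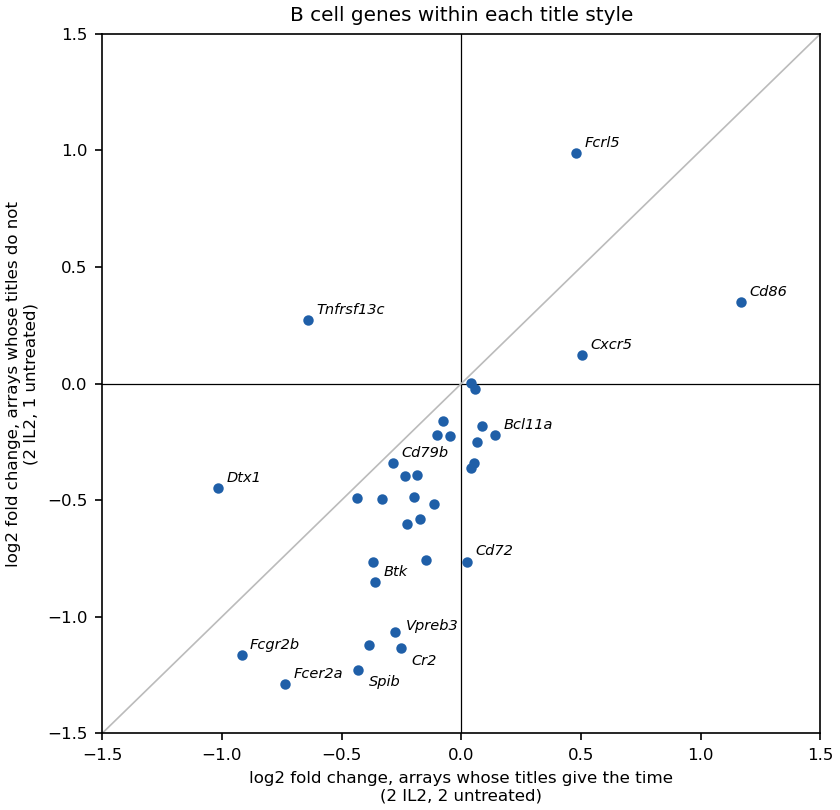
Log2 fold change of IL2 over untreated for the 34 B cell genes within the arrays whose titles give the time (horizontal) and within those whose titles do not (vertical, 1 untreated array), with a line of equality. Most points lie below that line, with Tnfrsf13c, Dtx1 and Fcrl5 above it.

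Few of the genes that work with the B cell list were called, and more of them after the arrays were normalized by quantiles again. Of 14 immunoglobulin genes 5 were measured with a symbol of their own, and by limma 0 were called either way or lower or higher at an unadjusted p under 0.05. Their median was -0.36, and -0.12 without untreated replicate 2, and 1 was called lower with replicate number or title style as a block. Ighm, the heavy chain of IgM, went from 10.01 ± 0.44 (n = 3) to 9.58 ± 0.31 (n = 4), and Jchain, which joins secreted IgM and IgA, had -0.60 (SE 0.50). Of 22 measured genes of further B cell receptor signalling, 0 rose and 1 fell, the tetraspanin gene Cd81, at -0.81 (SE 0.13, limma adjusted p = 0.0164), while 11 were negative and 11 positive. Leaving out replicate 3 of either group, untreated replicate 4 or IL2 replicate 2 ended that call (limma adjusted p from 0.0707 to 0.0851). In that list 6 of 22 were lower after quantile normalization again and 3 when genes below the median signal were dropped, with 0 higher in both.

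Of 24 measured genes of B cell activation and the germinal centre 1 rose and 1 fell. Gpr183, the oxysterol receptor EBI2 that positions activated B cells, fell from 10.01 ± 0.18 (n = 3) to 9.12 ± 0.15 (n = 4), by 0.89 on the log2 scale (limma adjusted p = 0.00972), and kept its call with any 1 array left out. Irf8, an interferon regulatory factor of B and myeloid cells, rose by 1.22 (SE 0.18, limma adjusted p = 0.0134), and its call ended without untreated replicate 4 or IL2 replicate 2 or 3. Leaving out untreated replicate 2 gave 2 rises in that list, and quantile normalization again gave 5 falls and 1 rise. Of 10 plasma cell genes limma called 0 (1 lower and 3 higher at an unadjusted p under 0.05), with the largest difference in Creld2, a chaperone of the endoplasmic reticulum, at 1.30 (limma adjusted p = 0.0512). That count became 1 higher without untreated replicate 2, 2 higher without IL2 replicate 1 or after quantile normalization again, and 3 higher with centred arrays. Of 9 measured genes of the MHC class II pathway, which B cells share with other antigen-presenting cells, limma called 0 (3 lower and 0 higher unadjusted) and the median was -0.19, with 1 lower after quantile normalization again. H2-Aa and Cd74, the class II alpha chain and the invariant chain, had -0.33 (SE 0.14) and -0.17 (SE 0.08).

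The remaining marker lists give the other cells these arrays could hold. Of 12 dendritic cell markers 1 fell, the lectin receptor gene Cd209a at -1.71 (limma adjusted p = 0.00147), and 0 rose (1 without untreated replicate 2). Of 10 neutrophil markers 1 fell, the collagenase gene Mmp8 at -2.49, and all 10 were negative, with a median of -0.75. At an unadjusted p under 0.05 limma had 6 of them lower and 0 higher. Their summed intensity was 9709 to 12075 untreated and 5510 to 7652 with IL2. After quantile normalization again 3 dendritic cell and 3 neutrophil markers were lower, and with title style as a block 4 neutrophil markers were. By limma 0 of 7 measured plasmacytoid dendritic cell markers, 0 of 13 T cell markers and 0 of 5 measured erythroid markers were called, and at an unadjusted p under 0.05 only 1 lower and 1 higher among the first. T cell markers had a median of -0.03, and their summed intensity was 2452 to 3805 untreated and 2333 to 3956 with IL2, with the values of replicates 3 and 4 above those of replicates 1 and 2 in both groups.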

How the data were processed

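Intensities were deposited as RMA values on a linear scale, made by the authors using RMA in Affymetrix Power Tools, per the submitters' processing notes. Not given in the sources used here are versions, settings and which arrays were normalized together. These values were taken to log2 with no offset. Of 24922 probe sets 21425 had 1 gene symbol, 1399 several and 2098 none, and only the first were used, with the brightest per gene by mean over the 7 arrays. No sample and no column was left out. On 53.3% of probe sets at least 2 arrays held equal values, as for 7 of the 34 B cell genes. Such ties can lower the measured spread. Some lie across the groups, as for Cd37, at 11.10 in untreated replicate 2 and IL2 replicates 2 and 3. The effect of ties on the comparison was not tested.

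IL2 and untreated arrays were compared with limma 3.58.1 in R 4.3.3 (lmFit, eBayes), with Benjamini-Hochberg adjustment over all 19752 genes and no filter, and the code was tested on simulated data. ± is the SD over arrays, and SE and intervals are limma's. The members and lists were chosen with earlier results of these data known, so no list was tested. Any of the 34 genes could be named, and of other lists the 2 called genes of largest change, or the 1 of largest change, with a few always named. Precision is limited by the number of arrays. The alternatives were blocks for replicate number and title style, signal, scaling, weights, variance prior, probe and pseudocount settings, and leaving out each array.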

Additional observations from a re-analysis of the deposited data

Results flagged for a closer look

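Among the 4 IL2 arrays, 2 of the 34 B cell genes had 1 array set apart from the other 3 by Dixon's criterion. Chance alone meets it in about 5% of such groups where no values are equal. Bcl11a read 9.35 in IL2 replicate 2 and 9.23 in the other 3, whose values were equal. With 3 equal values any different value on the remaining array meets the criterion, so the flag of Bcl11a says nothing about distance. Tnfrsf13c read 9.49 in IL2 replicate 2 and at least 9.68 in the others.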

How the results depend on the processing

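The 34 B cell genes were recomputed under 18 alternative settings, and 24 of them kept their sign in all. Quantile normalization again called 721 genes higher and 626 lower of all genes, so that 53.5% of calls were rises, where it was 69.7%, and it called 2 B cell genes higher and 11 lower (median -0.39). These were Cd86 and Fcrl5, and Blk, Btk, Cd79b, Dtx1, Ebf1, Fcer2a, Fcgr2b, Pax5, Pou2af1, Spib and Tnfrsf13b; the cause was not tested. Over arrays whose titles give the time 81 genes were higher and 22 lower, with 0 B cell genes either way; over the others all counts by limma were 0 (1621 higher and 1009 lower at an unadjusted p under 0.05) and the B cell median was -0.42, with fewer arrays in each. The B cell genes higher were 2 when the dimmer genes (mean below the median) were dropped and with array quality weights, and 1 with centred arrays or with trend and robust eBayes. Over all genes, in that order, 578 of 9876, 553, 507 and 396 were higher. The B cell genes lower were 4, 3, 3 and 3 in these settings, beside 217, 159, 187 and 182 of all genes. Without 1 array in turn, 134 to 517 genes were higher, 65 to 152 lower, 0 to 1 B cell genes higher and 0 to 3 lower, and the B cell median was -0.33 to -0.12.

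The replicate number as a block gave 554 genes higher and 184 lower and 2 B cell genes lower, Dtx1 losing its call (limma adjusted p = 0.0584). Same-numbered arrays (replicates 2, 3 and 4) correlated at 0.46, -0.30 and 0.31 in their deviations from group means. Untreated replicates 2 and 4 correlated best with the IL2 array of their number, though replicate 4 had 0.29 with IL2 replicate 3. Untreated replicate 3 correlated best with IL2 replicate 1 (0.45). Deviations from means of so few arrays depend on each other, so these values cannot settle whether the arrays were paired. The labels give only a shared number, and pairing was not used in the main fit.

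Signs turned in 10 genes not called over all arrays, of which 8 had differences of -0.12 to 0.03, Cd72 -0.24 and Tnfrsf13c -0.35. With titles giving the time, values were 0.05 for Blnk, 0.09 for Cd37, 0.07 for Cd22, 0.02 for Cd72 and 0.04 for Swap70, and with the other titles -0.22 for Bcl11a, 0.27 for Tnfrsf13c and -0.02 for Cd83. With title style as a block Bcl11a had -0.00. After quantile normalization again Bcl11a, Ly6d and Cd83 had -0.11, -0.12 and -0.11. Cd37 had 0.06 with the replicate block and 0.01 with array weights, and Cd22 had 0.02 with centred arrays and 0.05 with weights. Ranges with 1 array left out were -0.18 to 0.02 for Blnk, -0.11 to 0.17 for Bcl11a, -0.23 to 0.04 for Ms4a1, -0.14 to 0.06 for Cd37, -0.01 to 0.04 for Ly6d, -0.10 to 0.17 for Cd22, -0.44 to 0.02 for Cd72 and -0.00 to 0.06 for Cd83.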
